A study of Mus musculus with 8 samples.

Results

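The tumour suppressor p53, its inhibitor Mdm2, a set of genes that p53 switches on and the Bcl-2 family genes of the mitochondrial death pathway were examined in activated muscle stem cells (ASCs) with and without mitofusin 2. The 10 genes (Trp53, Mdm2, Cdkn1a, Ccng1, Gadd45a, Gadd45b, Bbc3, Pmaip1, Bax and Bcl2l1) were chosen by symbol and all 10 were present among the 18877 genes of the table. Of these, Mdm2, Cdkn1a, Pmaip1 and Gadd45a were higher in mfn2-/- ASCs by 1.98-fold to 3.28-fold, while no change in Trp53, Ccng1, Gadd45b, Bbc3, Bax or Bcl2l1 passed the test.

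RNA was sequenced from 4 wild-type and 4 mfn2-/- libraries of ASCs, the satellite cells of muscle once injury has brought them out of quiescence. All mice carried a mitochondrial Dendra2 fluorescent reporter under the tamoxifen-inducible Pax7-Cre(ERT2) driver, which acts in Pax7-expressing cells, and the mfn2-/- mice had conditional Mfn2 alleles as well, so that recombination was limited to the Pax7 lineage. Tamoxifen (75 mg/kg, daily for 5 days) was given to both genotypes, then 50 µL of 1.2% BaCl2 was injected into the tibialis anterior muscle, and CD34-, Dendra2+, DAPI- cells were sorted 2 days after that injury. The age of the mice was not given in the sources used here, and the labels do not say whether each library came from a separate animal, so p-values measure only the spread between these libraries.

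p53 is a transcription factor that is held at a low level by Mdm2, a ubiquitin ligase that is itself switched on by p53. Once p53 is stabilised, it raises genes that halt the cell cycle (Cdkn1a, Gadd45a) and genes that act at the mitochondrial outer membrane (Bax, Bbc3, Pmaip1), where pro-apoptotic proteins are restrained by survival proteins such as Bcl-xL, the product of Bcl2l1. In muscle stem cells, p53 and its targets are known for governing survival, cell cycle exit and the choice between renewal and differentiation. Since p53 is regulated mainly through protein stability, its transcript level and the level of its targets can differ.

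Values are normalized read counts (reads divided by 1 size factor per library by the authors) and changes are differences of the mean log2(normalized read count + 1), mfn2-/- minus wild-type, from a limma fit of 11754 genes with a mean of at least 10. A gene was called where its two-sided Benjamini-Hochberg adjusted p, taken over all genes tested, was under 0.05. Libraries held 1880464 to 7508215 reads, with wild-type replicate 1 and mfn2-/- replicate 4 the shallowest, and 1 read was worth 0.534 to 2.27 normalized read counts. In each genotype, 2 libraries contained reads of Y-linked genes (replicates 3 and 4 of wild-type, replicates 1 and 2 of mfn2-/-) and 2 had 0 such reads, and changes within each kind are given beside the members. The targeted gene was at 104, 118, 172 and 110.0 in mfn2-/- libraries and at 243, 245, 202 and 228 in wild-type libraries, without overlap, but its change of -0.88 (SE 0.30) missed the threshold (limma, adjusted p = 0.0848). Hif1a, the hypoxia factor that the study follows, was at 812 ± 195 in wild-type and 2887 ± 433 in mfn2-/- ASCs (SD, n = 4 each; change of 1.85, limma adjusted p = 7.97e-05). Marker genes also differed. The summed level of 12 fibroadipogenic markers was 210716 to 278701 in wild-type libraries and 5377 to 9812 in mfn2-/- libraries. By limma 10 of them were called lower (6.36% of all genes tested) and 0 higher. Col1a1 (mean of 106037) and Col1a2 (58895) were the most abundant of them in wild-type libraries. Ly6a (11.6 and 34.4, change of 2.08, limma adjusted p = 0.309) and Dpt (change of -1.66, limma adjusted p = 0.127) were not called. The summed level of 8 tenocyte markers was 23022 to 35033 in wild-type and 228 to 361 in mfn2-/- libraries, and that of 11 markers of muscle stem cells, the labelled cell type, was 9513 to 14817 and 27704 to 42116. Pax7, which defines these cells, was at 662 ± 45.9 and 715 ± 96.1 (SD, n = 4 each). Of the 11 muscle stem cell markers, 4 were called higher (36.4%, beside 3.99% of all genes tested) and 0 lower by limma. Of their changes, 7 were positive and 4 negative with a median of 0.10. The 2 markers Sdc4 (2908 to 5871 in wild-type and 14829 to 23212 in mfn2-/- libraries) and Des (1376 to 3104 and 5275 to 11504) held most of the sum in every mfn2-/- library. The other 2 called markers were Myod1 (104 to 225 and 683 to 918, change of 2.32, limma adjusted p = 0.000146) and Vcam1 (1229 to 1578 and 2836 to 3517, change of 1.21, limma adjusted p = 0.00052). No fibroadipogenic or tenocyte marker was at 0 in all libraries of a group, endothelial sums overlapped (943 to 1289 and 1037 to 1606), mural sums were 2095 to 3142 and 845 to 1238, and macrophage sums were 31.9 to 116 and 85.3 to 145. Emr1, the defining macrophage marker, was at 0 in all libraries except mfn2-/- replicate 2 (14.2, from 18 reads). In bulk samples, fewer cells of a type and less RNA per cell cannot be told apart, and the part of these differences in the results below was not tested.

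The 250 bases before the start site were taken from RefSeq (GRCm38.p6) for 5 members, because they hold the letters of the p53 half-site and so show the promoter sequence beside the measured genes. The table has no coordinates, and the processing notes name mm9. Capitals mark a p53 half-site, searched on both strands. Sequences run 5′ to 3′ on the strand of the gene.
Cdkn1a (chr17:29090729-29090978, plus strand): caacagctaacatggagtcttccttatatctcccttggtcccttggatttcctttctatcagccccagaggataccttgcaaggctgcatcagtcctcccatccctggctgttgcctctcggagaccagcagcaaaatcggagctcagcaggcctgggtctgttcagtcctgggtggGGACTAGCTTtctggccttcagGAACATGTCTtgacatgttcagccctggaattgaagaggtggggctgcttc
Mdm2 (chr10:117710759-117711008, minus strand): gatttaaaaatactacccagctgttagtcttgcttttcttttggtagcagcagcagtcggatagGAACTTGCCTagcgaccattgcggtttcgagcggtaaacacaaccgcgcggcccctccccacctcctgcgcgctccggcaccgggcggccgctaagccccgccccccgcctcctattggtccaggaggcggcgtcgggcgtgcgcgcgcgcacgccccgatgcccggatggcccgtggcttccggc
Gadd45a (chr6:67037408-67037657, minus strand): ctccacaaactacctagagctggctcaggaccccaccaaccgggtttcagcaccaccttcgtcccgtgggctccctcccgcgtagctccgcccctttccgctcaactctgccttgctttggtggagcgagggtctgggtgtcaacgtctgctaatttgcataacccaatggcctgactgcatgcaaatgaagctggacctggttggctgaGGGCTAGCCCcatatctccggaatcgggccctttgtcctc
Ccng1 (chr11:40755287-40755536, minus strand): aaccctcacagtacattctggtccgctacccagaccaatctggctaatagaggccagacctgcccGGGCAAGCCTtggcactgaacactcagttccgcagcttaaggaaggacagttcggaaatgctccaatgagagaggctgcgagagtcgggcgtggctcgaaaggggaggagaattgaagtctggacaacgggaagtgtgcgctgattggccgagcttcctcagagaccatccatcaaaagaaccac
Bax (chr7:45466899-45467148, minus strand): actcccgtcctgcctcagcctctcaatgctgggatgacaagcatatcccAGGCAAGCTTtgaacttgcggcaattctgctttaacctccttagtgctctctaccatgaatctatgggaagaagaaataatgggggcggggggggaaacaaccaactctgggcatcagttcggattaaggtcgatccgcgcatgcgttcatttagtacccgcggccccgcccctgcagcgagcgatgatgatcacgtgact

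The Cdkn1a window had 2 half-sites, GGACTAGCTT at 73 to 64 bases and GAACATGTCT at 51 to 42 bases before the start. Single half-sites were found at 186 to 177 bases in Mdm2 (GAACTTGCCT), 40 to 31 bases in Gadd45a (GGGCTAGCCC), 185 to 176 bases in Ccng1 (GGGCAAGCCT) and 201 to 192 bases in Bax (AGGCAAGCTT). A half-site was also found in the Trp53 window. In all, 14 windows of 9 members were searched, and 6 windows of 6 genes held a half-site, against 7.13% of 32851 promoter windows of the same length. The list was chosen for p53 and its targets, so these shares describe it and are no test. Sequence outside the windows was not searched. No half-site was in the windows of Bbc3, Bcl2l1 or Gadd45b, or in that of the second Cdkn1a start, 2790 bases from the first. The promoter of Pmaip1, the other member that rose, was not analysed here. A match is a description, not a site or a cause, and the genes that rose (Cdkn1a, Mdm2, Gadd45a) and genes whose change was not called (Trp53, Ccng1, Bax) both had one.

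**Figure D1:**
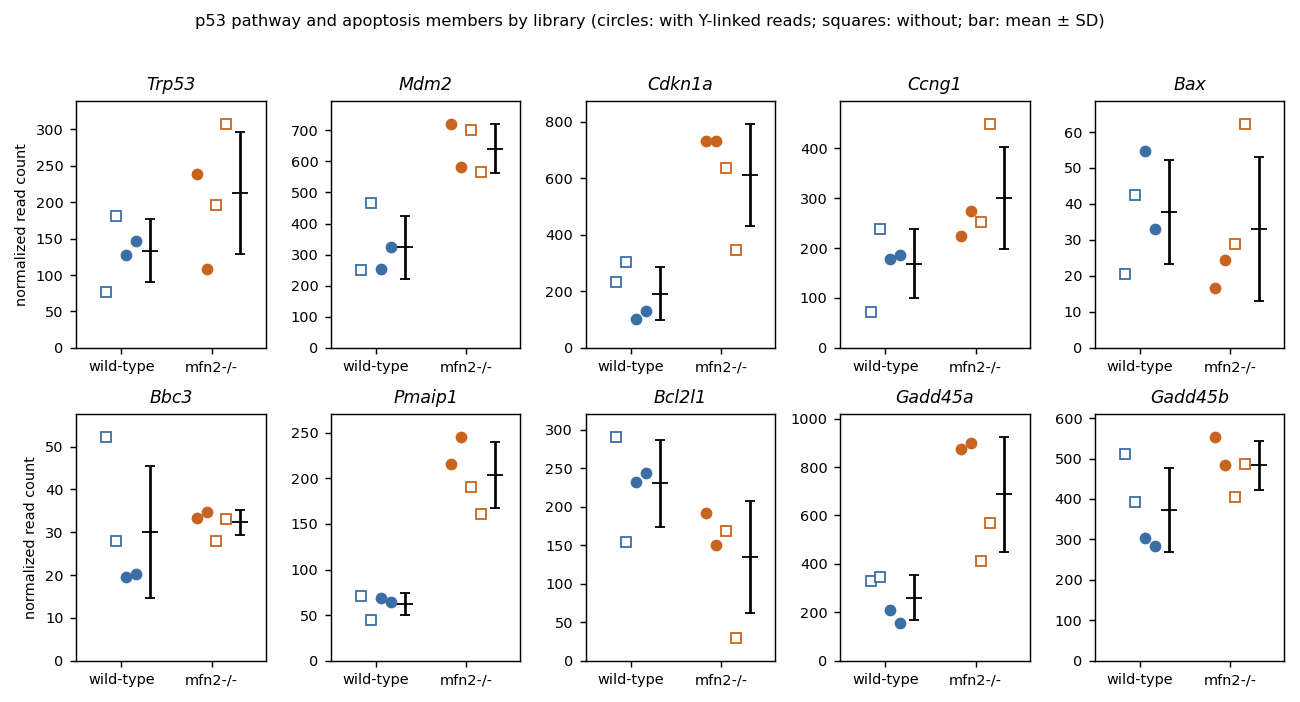
Normalized read count of each member in the 8 libraries on linear axes from 0, with 1 point per library (filled circles with Y-linked reads, open squares without them) and the mean ± SD of each genotype (n = 4). For Mdm2, Cdkn1a, Pmaip1 and Gadd45a every mfn2-/- point lies above every wild-type point, while the groups overlap for the other members.

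The transcript of p53 itself was measured at 77.3, 180.4, 128 and 147 in wild-type replicates 1 to 4 and at 239, 108, 196 and 308 in mfn2-/- replicates 1 to 4. The groups overlapped, with mfn2-/- replicate 2 below 3 of the 4 wild-type libraries. The change in Trp53 was 0.64 (SE 0.40, 95% confidence interval -0.22 to 1.50) and was not called (limma, adjusted p = 0.357). It was 0.22 within the libraries with Y-linked reads and 1.05 within those without them. Trp53 has a processed pseudogene, Trp53-ps, whose annotated sequence is 97.7% identical over 353 bases, so reads could be shared between them.

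Mdm2, which encodes the ubiquitin ligase that restrains p53, was at 250.2, 467, 254 and 323 in wild-type libraries and at 719, 581, 700.1 and 564 in mfn2-/- libraries. Every mfn2-/- library was above the highest wild-type library, replicate 2. The level rose from 324 ± 101 to 641 ± 79.9 (SD, n = 4 each), 1.98-fold, and the log2 change was 1.02 (SE 0.24, adjusted p = 0.0175 by limma). Within libraries with Y-linked reads it was 1.17, and within those without them 0.88. Leaving out wild-type replicate 3, mfn2-/- replicate 1 or mfn2-/- replicate 3 each ended the call (adjusted p = 0.0599, 0.0549 and 0.0535 by limma), with changes of 0.92, 0.97 and 0.98. Parts of Mdm2 match transcripts of other genes at 95% identity or more over at least 100 bases. Abcd4 matches at 95.5% over 132 bases, so reads could be shared.

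Of the genes that halt the cell cycle, Cdkn1a encodes p21, an inhibitor of cyclin-dependent kinases. It was at 234, 305, 100.5 and 129 in wild-type libraries and at 732, 731, 637 and 348 in mfn2-/- libraries. The groups did not overlap, although mfn2-/- replicate 4 stood closest to the wild-type range. The mean rose 3.18-fold, from 192 ± 94.6 to 612 ± 181 (SD, n = 4 each), with a log2 change of 1.74 (SE 0.37, adjusted p = 0.0092 by limma), and this change lay at percentile 95.8 of all genes tested. The change was 2.67 in the libraries with Y-linked reads and 0.82 in those without them, a difference that did not pass the test of the interaction (limma, adjusted p = 0.126). Cdkn1a shares 273 exon bases with AC167363.2 on the opposite strand, and the strand setting of the counting was not given in the sources used here. Parts of Cdkn1a also match transcripts of other genes at 95% identity or more over at least 100 bases. Syt11 matches at 96.3% over 163 bases, so reads could be shared.

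Gadd45a, a stress sensor that binds the replication clamp and slows the cycle, was at 329.8, 347, 209.9 and 157 in wild-type libraries and at 874, 898, 413 and 568 in mfn2-/- libraries. Again every mfn2-/- library exceeded every wild-type one, with replicates 1 and 2 the highest. The level rose from 261 ± 92.4 to 688 ± 237 (SD, n = 4 each), 2.64-fold, with a log2 change of 1.40 (SE 0.32, adjusted p = 0.0151 by limma). Within libraries with Y-linked reads the change was 2.28, and within those without them 0.52 (interaction adjusted p = 0.0584 by limma). Leaving out mfn2-/- replicate 2 gave a change of 1.25 that was no longer called (adjusted p = 0.0539 by limma). The gene shares 337 exon bases with E230016M11Rik on the opposite strand, which was listed at 0 to 19.8 and was not tested.

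Its relative Gadd45b was at 512, 393, 303 and 284 in wild-type libraries and at 554, 484, 406 and 487 in mfn2-/- libraries. The ranges overlapped through wild-type replicate 1. The change of 0.40 (SE 0.24, 95% confidence interval -0.12 to 0.92) was not called (limma, adjusted p = 0.331), and it was 0.82 within the libraries with Y-linked reads and -0.01 within the others. Ccng1, cyclin G1, a p53 target that acts on Mdm2, was at 72.8, 237, 177 and 185 in wild-type libraries and at 224, 275, 252 and 449 in mfn2-/- libraries. Only mfn2-/- replicate 1 lay below a wild-type library, replicate 2, and the change of 0.90 (SE 0.38, 95% confidence interval 0.07 to 1.73) was not called (limma, adjusted p = 0.164). With Y-linked reads the change in Ccng1 was 0.45, and without them 1.35.

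The BH3-only proteins, which trigger the mitochondrial pathway, were measured through Pmaip1 and Bbc3. Pmaip1, which encodes Noxa, a partner of Mcl1, was at 70.5, 44.6, 68.6 and 64.1 in wild-type libraries and at 216, 246, 190.1 and 161 in mfn2-/- libraries. All mfn2-/- values were at least 161, above the wild-type maximum of 70.5. The mean rose 3.28-fold, from 62.0 ± 11.9 to 203 ± 36.1 (SD, n = 4 each), with a log2 change of 1.70 (SE 0.38, adjusted p = 0.0119 by limma). The changes in the 2 kinds of library were 1.78 with Y-linked reads and 1.62 without them. Leaving out mfn2-/- replicate 2 gave 1.61 with an adjusted p of 0.0561 by limma.

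Bbc3, which encodes Puma, was at 52.3, 28.0, 19.6 and 20.3 in wild-type libraries and at 33.3, 34.8, 28.0 and 33.0 in mfn2-/- libraries. Each value rested on 18 to 50 reads. Wild-type replicate 1 was above every mfn2-/- library, and the change of 0.21 (SE 0.77, 95% confidence interval -1.45 to 1.87) was not called (limma, adjusted p = 0.893), an interval that also covers a change as large as that of Pmaip1. Its sign differed between the kinds of library, at 0.74 with Y-linked reads and -0.32 without them.

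Bax, the effector that permeabilises the outer membrane, was at 20.5, 42.5, 54.7 and 33.1 in wild-type libraries and at 16.7, 24.5, 28.7 and 62.3 in mfn2-/- libraries. The highest and the lowest value both belonged to mfn2-/- libraries, replicates 4 and 1. The change was -0.27 (SE 0.78, 95% confidence interval -1.96 to 1.42) and was not called (limma, adjusted p = 0.866), and the values rested on as few as 9 reads in wild-type replicate 1. The sign of the change in Bax differed between the kinds of library as well, at -1.04 with Y-linked reads and 0.51 without them. Bax shares 192 exon bases with the annotated gene Gm45808 on the same strand.

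Bcl2l1, the survival gene of the group, was at 291, 155, 232 and 244 in wild-type libraries and at 192, 151, 168 and 29.3 in mfn2-/- libraries. The lowest value, in mfn2-/- replicate 4, rested on 16 reads, and the groups overlapped. The change was -1.03 (SE 0.53, 95% confidence interval -2.17 to 0.11), which was not called (limma, adjusted p = 0.252). Leaving out mfn2-/- replicate 4 gave -0.40 (adjusted p = 0.418 by limma). Within the libraries with Y-linked reads the change was -0.48, and within those without them -1.57.

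Of the 10 members, 4 were called higher in mfn2-/- ASCs, 0 lower and 6 not called by limma, and 0 were lower at an unadjusted p under 0.05 or by edgeR or DESeq2. Among all genes tested, 10.4% were called, with 3.99% called higher and 6.36% lower, beside 40% of members called higher. With the filter at a mean of 50, 523 of 7640 genes were called higher. The members were chosen with earlier results of these data known, so these shares describe the list and do not test it. The 4 wild-type and 4 mfn2-/- libraries did not overlap for the same 4 members, Mdm2, Cdkn1a, Pmaip1 and Gadd45a, all higher in mfn2-/- ASCs, against 7.36% of all genes (12.2% of all genes were lower without overlap). The same 4 members were called higher by edgeR (4.26% of all genes called higher), by DESeq2 (5.54%) and by limma with the Y-linked kind as a term (4.93%), and library weights added Gadd45b (11.9%). The median change of the members was 0.77 while that of all genes was -0.16, with 8 members at a positive and 2 at a negative change (Bax and Bcl2l1). The limma test of a difference between the kinds of library, with 2 libraries per genotype in each, passed for 0 of the 10 members and for 173 of the 11754 genes tested, which does not show that the members changed alike in both kinds.

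**Figure D2:**
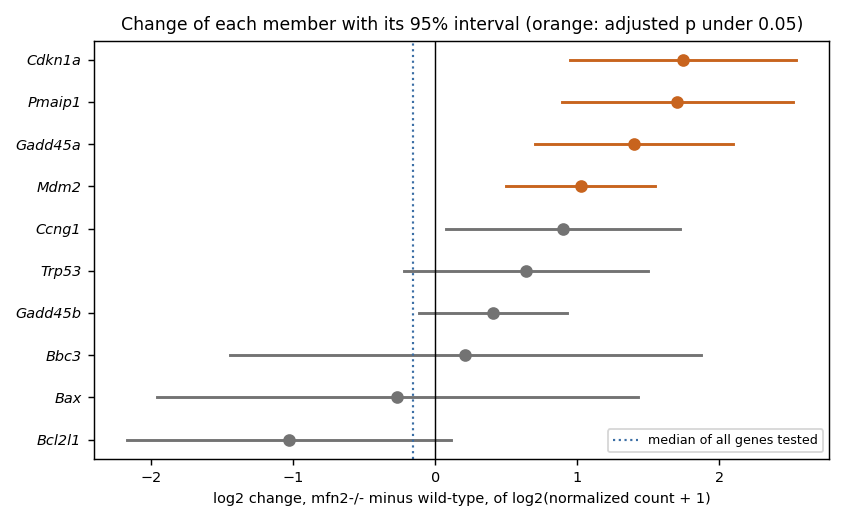
Log2 change (mfn2-/- minus wild-type) of each member with its 95% confidence interval, n = 4 libraries per group, with called members in orange and the median of all genes tested (-0.16) as a dotted line. The intervals of Cdkn1a, Pmaip1, Gadd45a and Mdm2 lie above 0, as does that of Ccng1, which was not called, and the other 5 include 0.

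**Figure D3:**
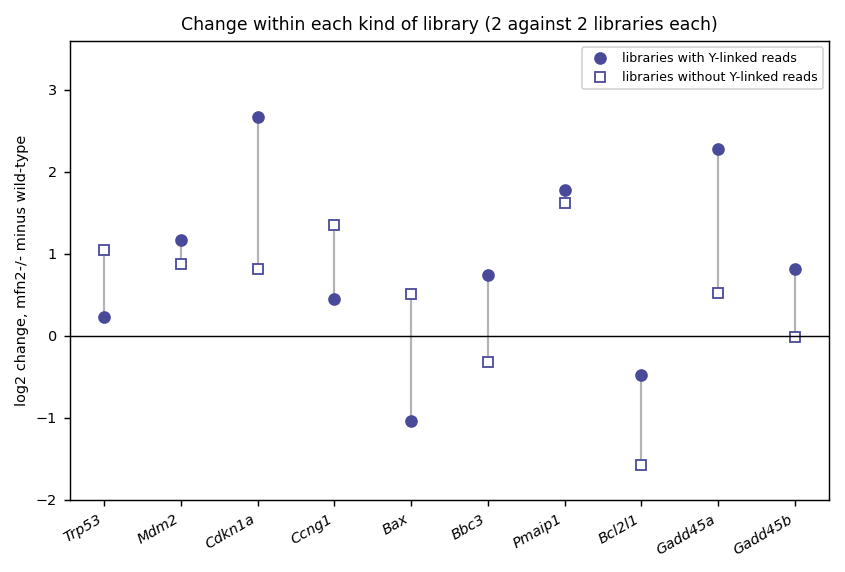
Log2 change of each member within the libraries with Y-linked reads and within those without them (2 libraries per genotype in each). Cdkn1a and Gadd45a changed by 2.67 and 2.28 with Y-linked reads and by 0.82 and 0.52 without them, while Pmaip1 changed by 1.78 and 1.62.

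On a per-length scale (mean normalized read count per kb of merged exons, GENCODE M21 on GRCm38), the levels in wild-type ASCs ran from Gadd45b (235), Gadd45a (148), Mdm2 (63.6), Cdkn1a (54.1), Bcl2l1 (50.2), Ccng1 (47.9), Trp53 (33.0), Bax (23.9) and Pmaip1 (22.7) to Bbc3 (14.1), and the ranges of all neighbours in this order overlapped. In mfn2-/- ASCs, Gadd45a (390.2 per kb) stood first and Cdkn1a (172) came after Gadd45b (304), and Bbc3 (15.2) was last. Only Gadd45b and Cdkn1a were neighbours whose ranges did not overlap in mfn2-/- ASCs.

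Regulators of p53 other than Mdm2 were read from the same fit, in a list of 13 genes of which 10 were tested. By limma 0 were called (2 higher and 1 lower at an unadjusted p under 0.05, and 0 by edgeR or DESeq2), with 6 positive and 4 negative changes and a median of 0.18. The median was -0.57 within the libraries with Y-linked reads and 0.31 within those without them. Mdm4, a relative of Mdm2 that blocks p53 activity, was at 291, 249, 320.1 and 394 in wild-type libraries and at 428, 512, 557 and 517 in mfn2-/- libraries. The groups did not overlap, but its change of 0.70 (SE 0.22) was not called (limma, adjusted p = 0.0679). Usp7, a deubiquitinase of Mdm2 and p53, had a change of 0.59 (limma, adjusted p = 0.0903), and the kinase Atm of 0.24 (limma, adjusted p = 0.726).

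Of 32 other p53 targets, 31 were in the table and 28 were tested, of which 2 were called higher (Eda2r, Fas), 2 lower (Perp, Steap3) and 24 not called. Each direction held 7.14% of the tested targets, beside the 3.99% higher and 6.36% lower of all genes, and the median change was 0.08 with 14 positive and 14 negative. The median was 0.44 within the libraries with Y-linked reads and -0.87 within those without them. Eda2r, a member of the TNF receptor family, was at 29.6, 92.3, 39.2 and 99.4 in wild-type libraries and at 331, 322, 380.2 and 199.7 in mfn2-/- libraries, with a log2 change of 2.37 (SE 0.45, adjusted p = 0.00504 by limma). Every mfn2-/- value exceeded every wild-type value, and the change was 2.37 in both kinds of library. Fas, the death receptor, was at 150.1, 108, 42.5 and 88.7 in wild-type and 447, 334, 363 and 181 in mfn2-/- libraries, with a change of 1.82 (SE 0.42, adjusted p = 0.0155 by limma). Its groups did not overlap, and the change was 2.63 with Y-linked reads and 1.01 without them. The call was lost without mfn2-/- replicate 1 (adjusted p = 0.0566 by limma) or mfn2-/- replicate 3 (adjusted p = 0.0513 by limma).

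Perp, a desmosomal tetraspan target of p53, was at 2388, 1229, 303 and 268 in wild-type libraries and at 21.3, 45.0, 67.1 and 29.3 in mfn2-/- libraries, and fell by 4.20 on the log2 scale (SE 0.64, adjusted p = 0.00107 by limma). Steap3, a ferrireductase, was at 266, 290.4, 274 and 266 in wild-type libraries and at 30.7, 35.6, 35.4 and 0 in mfn2-/- libraries. It fell by 4.26 (SE 1.00, adjusted p = 0.0161 by limma), and the call was lost without wild-type replicate 3 (adjusted p = 0.0518 by limma). Both were lower in all mfn2-/- libraries, and the fibroadipogenic and tenocyte marker sums above were lower in these libraries as well. Their part in the falls of Perp and Steap3 was not tested.

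Beyond the members, 12 of the 16 other Bcl-2 family genes were in the table and 8 were tested, of which 0 were called by limma (2 higher and 1 lower at an unadjusted p under 0.05; 0 by edgeR, and Bcl2l11 by DESeq2). Their median change was -1.09, with 3 positive and 5 negative. The median was -0.16 within the libraries with Y-linked reads and -1.09 within those without them. Bak1, Bok and Bad were at 0 in mfn2-/- replicate 4, a shallow library. Mcl1, a survival protein that Noxa binds, was at 2793 ± 623 in wild-type and 4741 ± 2063 in mfn2-/- ASCs (SD, n = 4 each), and its change of 0.68 was not called (limma, adjusted p = 0.176). Within libraries with Y-linked reads the change in Mcl1 was 1.51 and in those without them -0.16, and the interaction passed the test (limma, adjusted p = 0.00452). Bcl2 (0.69, limma adjusted p = 0.214) and Bcl2l2 (-0.83, limma adjusted p = 0.431) were not called. The groups did not overlap for 2 of the 8 tested genes, 1 higher and 1 lower, chosen after their values were seen. Among all genes tested, 7.36% were higher and 12.2% lower without overlap. Bcl2l11, which encodes the BH3-only protein Bim, was at 95.5, 58.1, 40.0 and 34.2 in wild-type libraries and at 137, 145, 120.1 and 143 in mfn2-/- libraries (change of 1.36, SE 0.47, limma adjusted p = 0.0885). Bok, a relative of Bax, was at 47.8, 37.3, 37.6 and 34.7 in wild-type libraries and at 2.67, 10.3, 14.0 and 0 in mfn2-/- libraries (change of -3.01, limma adjusted p = 0.112). The mfn2-/- values of Bok rested on 4, 13, 19 and 0 reads.

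All 16 genes of the apoptosome, the caspases and their inhibitors were tested. Birc3 and Birc2, which encode the inhibitors of apoptosis cIAP2 and cIAP1, were called higher, 0 were called lower by limma, edgeR or DESeq2 (1 at an unadjusted p under 0.05), and the median change was 0.09. The share called higher was 12.5%, beside 3.99% of all genes tested. Birc3 was at 703, 859.7, 323 and 429 in wild-type libraries and at 2517, 2251, 1215 and 1164 in mfn2-/- libraries, a change of 1.64 (SE 0.33, adjusted p = 0.00738 by limma). The groups did not overlap, and the change was 2.67 in the libraries with Y-linked reads and 0.61 in those without them (interaction adjusted p = 0.00618 by limma). Birc2 rose from 242 ± 43.5 to 483 ± 142 (SD, n = 4 each), a change of 0.96 (SE 0.26, adjusted p = 0.0354 by limma), and the call was lost on leaving out any 1 library except wild-type replicate 4 or mfn2-/- replicate 3 (limma adjusted p = 0.0586 to 0.102). Birc6, a large inhibitor of apoptosis, was lower in every mfn2-/- library (1863 to 1953 in wild-type and 1587 to 1848 in mfn2-/- libraries), but its change of -0.15 was not called (limma, adjusted p = 0.593). Cycs and Diablo, the cytochrome c and Smac genes whose products leave mitochondria in apoptosis, were higher in every mfn2-/- library. Their changes of 0.82 and 0.61 were not called (limma, adjusted p = 0.115 and 0.293). Endog (-1.95), Htra2 (-1.33) and Aifm1 (0.07) of the same list were not called either (limma, adjusted p = 0.387, 0.638 and 0.958). These 5 genes were named after their values were seen. Of the 16 changes, 9 were positive and 7 negative. Without overlap 4 genes were higher and 1 lower, against 7.36% and 12.2% of all genes tested.

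Of the 5 relatives of Gadd45 and Cdkn1, 1 was called, in the lower direction, beside 6.36% of all genes tested. Cdkn1c, the p57 inhibitor of cyclin-dependent kinases, was at 1048, 863, 2672 and 2182 in wild-type libraries and at 525, 288, 374 and 889 in mfn2-/- libraries, and fell by 1.68 on the log2 scale (SE 0.39, adjusted p = 0.0161 by limma). The ranges overlapped, since mfn2-/- replicate 4 exceeded wild-type replicate 2, and the call was lost without wild-type replicate 3, wild-type replicate 4 or mfn2-/- replicate 3 (limma adjusted p = 0.0559, 0.0531 and 0.0501). The change in Cdkn1c was -2.63 with Y-linked reads and -0.72 without them. Gadd45g was at 382 to 459 in wild-type and 272 to 357 in mfn2-/- libraries, without overlap. Its change (-0.39, limma adjusted p = 0.290) and that of Cdkn1b (0.29, limma adjusted p = 0.573) were not called.

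Immediate early genes are known to rise when cells are dissociated or stressed. Of 20 tested, 3 were called higher (Klf6 at a change of 0.94, Egr2 at 0.91 and Klf4 at 0.87, with limma adjusted p = 0.00191, 0.0274 and 0.0209) and 0 lower (2 at an unadjusted p under 0.05, 0 by edgeR and 2 by DESeq2). The share called higher was 15%, beside 3.99% of all genes tested. Of the 20 changes, 12 were positive and 8 negative. The 3 most abundant of the list, Egr1 (-0.01), Jun (-0.27) and Fos (-0.81), were not called (limma adjusted p = 0.989, 0.521 and 0.0813). Fos was at 16316 to 22224 in wild-type and 7988 to 16125 in mfn2-/- libraries. Without overlap 3 genes were higher and 1 lower, against 7.36% and 12.2% of all genes tested. Leaving out wild-type replicate 3, wild-type replicate 4 or mfn2-/- replicate 1 each ended the calls of Egr2 (limma adjusted p = 0.0875, 0.0812 and 0.0806) and Klf4 (limma adjusted p = 0.0653, 0.0714 and 0.0546), and leaving out mfn2-/- replicate 2 ended that of Egr2 (limma adjusted p = 0.0838). The median change of the 20 genes was 0.31, and it was 0.98 within the libraries with Y-linked reads and -0.47 within those without them. The summed level was 88844 to 118839 in wild-type and 71157 to 144963 in mfn2-/- libraries, and the part of this in the changes of Cdkn1a and Gadd45a was not tested.

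**Figure D4:**
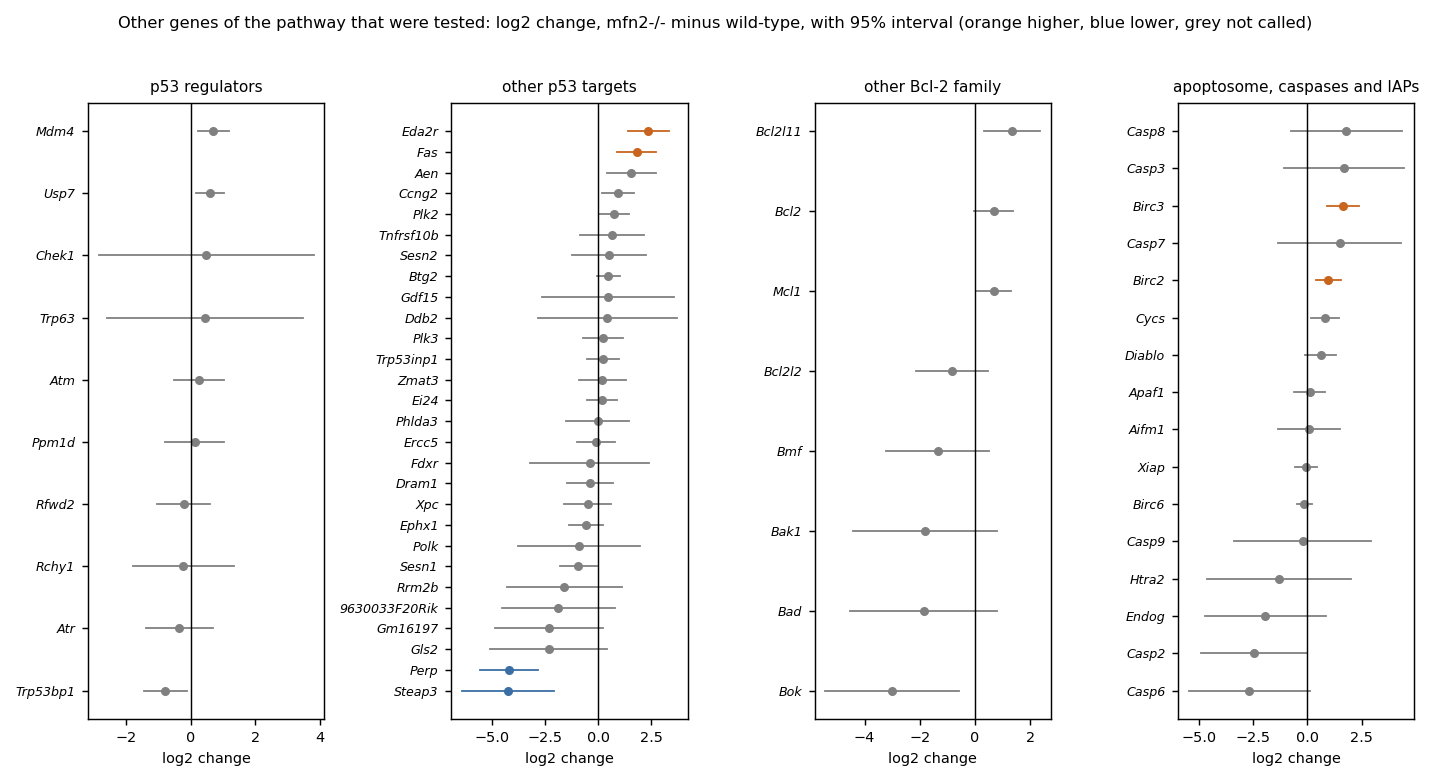
Log2 change (mfn2-/- minus wild-type) of the tested genes of 4 lists (other p53 regulators, other p53 targets, other Bcl-2 family genes, and the apoptosome, caspases and their inhibitors), with 95% confidence intervals and n = 4 libraries per group. Called genes lie above 0 (Eda2r, Fas, Birc3, Birc2; orange) and below 0 (Perp, Steap3; blue), and no regulator or Bcl-2 family gene was called.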

How the data were processed

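Normalized read counts (signal per gene) of 4 wild-type and 4 mfn2-/- libraries of sorted ASCs were deposited by the authors as 1 table, and group and replicate came from the titles. The submitters' processing notes name Trim Galore, HISAT2, featureCounts, DESeq2 and mm9; the strand setting is not given in the sources used here. In each column 100% of values were whole multiples (tolerance 0.01) of 1 step, so the authors had divided reads by 1 size factor per library, and whole reads were recovered for depth and for count-based alternatives. Unmapped columns numbered 0.

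Genes with a mean of at least 10 entered a limma fit (version 3.58.1, R 4.3.3) of log2(value + 1), trended by intensity and without covariates. The alternatives were other pseudocounts, filters, scalings, a replicate block, the Y-linked kind as a term, libraries left out, library weights, edgeR 4.0.16 and DESeq2 1.42.0. The rule named all members, Mfn2 and Hif1a, every called gene of a context list, and the most abundant others to 3 in all. Of the immediate early genes it also named the 3 most abundant. Members and lists were chosen with earlier results of these data known. The fit was also run on simulated counts. These lacked the marker gene differences and the kinds of library, so that run does not test the fit for these data. Python 3.11.15 was used for tables, sequences (RefSeq promoters) and figures. Without molecular identifiers, read counts cover counting error only.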

Additional observations from a re-analysis of the deposited data

Results flagged for a closer look

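Mcl1, Birc3 and Egr2 changed differently in the 2 kinds of library by limma's interaction test, which 173 of the 11754 genes tested passed. The change without Y-linked reads minus the change with them was -1.67 for Mcl1 (adjusted p = 0.00452), -2.06 for Birc3 (adjusted p = 0.00618) and -1.25 for Egr2 (adjusted p = 0.0233). Further immediate early genes passed with a difference of the same sign. Among them were Egr1 (-1.94), Fosb (-2.24), Fos (-1.23) and Dusp1 (-1.62), with limma adjusted p = 0.00163, 0.00171, 0.00436 and 0.00471. Jun (-0.45), Klf4 (-0.32) and Klf6 (-0.08) did not pass (limma adjusted p = 0.404, 0.728 and 0.874). Sex is not given in the labels, and the kinds coincided with replicates 1 and 2 or 3 and 4 within each genotype, so the kind and the replicate pair cannot be told apart. The shallowest library of each genotype, wild-type replicate 1 (1880464 reads) and mfn2-/- replicate 4 (2269009 reads), was without Y-linked reads. The part of depth in differences between the kinds was not tested.

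Among 70 groups of 4 libraries compared, 2 held a library far from the other 3, where chance would give about 3.5. Steap3 was at 0 in mfn2-/- replicate 4, the library with the fewest genes detected. Diablo was at 104.7 in wild-type replicate 4, beside 95.4 to 95.5 in the other wild-type libraries, a small difference in level.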

How the results depend on the processing

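The 4 called members stayed called under pseudocounts of 0.1 and 10, equal totals, upper-quartile scaling, quantile normalization, no filter, a filter at a mean of 50, the Y-linked kind as a term, the shallowest library of each group left out, edgeR and DESeq2. Without the intensity trend 1 member was called (Pmaip1; limma adjusted p of Mdm2 0.0957, Cdkn1a 0.0694 and Gadd45a 0.0937), library weights added Gadd45b (0.64, adjusted p = 0.0123 by limma), and leaving out each library gave 2 to 4, with 2 without mfn2-/- replicate 2. The 1217 called genes became 633 without the trend and 3037 with library weights, and 670 to 1307 with libraries left out (670 without wild-type replicate 3, 749 without wild-type replicate 4). The 469 higher became 844 with upper-quartile scaling, 113 without the trend and 1398 with weights (235 to 470 with libraries left out), and the 748 lower became 1639 with weights (435 to 837). The higher share of calls was 38.5%, 57.2% with upper-quartile scaling and 17.9% without the trend, and the median of all genes was -0.16, 0.04 with upper-quartile scaling and 0.07 with quantile normalization. Changes turned sign for Bax (0.25 with quantile normalization), Atm (-0.33 with weights, -0.25 without the shallowest libraries, and -0.16 to 0.47 with libraries left out, negative without mfn2-/- replicate 4) and Birc6 (0.054 with upper-quartile scaling). Within the kinds of library, signs also turned without Y-linked reads for Bax (0.51), Bbc3 (-0.32), Gadd45b (-0.01), Cdkn1b (-0.15) and Mcl1 (-0.16), and with them for Atm (-0.55). The causes were not tested.

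With the replicate number as a block, 1043 genes were called, 980 of them shared, and the same 4 members. Deviations of same-numbered libraries had correlations of -0.03, -0.05, 0.04 and -0.11. The highest with another number were 0.07, 0.04, 0.04 and 0.12. Correlations this near 0 cannot decide whether same-numbered libraries were prepared together, which the labels do not say. Of the other named genes, the call of Birc2 was lost under 9 alternatives, and those of Eda2r and Perp under none. Without the intensity trend the calls of Fas (limma adjusted p = 0.0686), Steap3 (0.0777), Birc3 (0.0765), Birc2 (0.123), Cdkn1c (0.111), Klf6 (0.0552), Egr2 (0.149) and Klf4 (0.134) were lost, and a pseudocount of 0.1 ended that of Steap3 (0.0777). The removal of the shallowest libraries was chosen after the data had been seen. Depth limits Bax and Bbc3, which the filter at 50 left out.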
